A study of Mus musculus with 10 samples.

Results

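This account covers the accessible chromatin of 10 mouse genes for inhibitory receptors and closely linked checkpoint molecules other than Ctla4, read from ATAC-seq libraries of naive CD4 T cells with and without deletion of Satb1, a nuclear protein that organises chromatin in T cells. The genes are Pdcd1, Lag3, Havcr2, Tigit, Btla, Cd160, Cd96, Cd200, Vsir and Lair1, and their peaks are those to which the deposited annotation gives one of these symbols. They hold 52 of 61581 peaks. With the peaks of a gene summed, 0 of 10 genes passed the test between the groups, where 2.19% of all tested genes did. Of the 36 peaks that could be tested 1 passed, where 3.85% of all tested peaks did; it lies upstream of Tigit and was 1.35-fold higher in the KO libraries, and that call was lost in 11 of 19 other analyses. Both counts are near what the background shares give, so they set these genes apart in neither direction.

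All libraries came from Satb1fl/fl x CD4-CreERT2wt/+ mice, so both groups carry the floxed Satb1 alleles and a Cre recombinase under CD4 control that tamoxifen activates. The 5 KO libraries are from tamoxifen-treated mice and the 5 WT libraries from untreated mice of the same genotype, and no tamoxifen-treated group without the deletion was analysed here: deletion and drug cannot be told apart. Each library was made from 60000 sorted cells of spleen and lymph node, positive for CD3, CD4 and CD62L, negative for CD25 and low or negative for CD44, a gate that sets aside regulatory, activated and memory cells. No source used here gives the age of the mice. Nor does any say whether the libraries of a group are from different animals; the p-values take the spread of the libraries as it is, and that may be partly technical.

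Total counts in peaks ran from 673398 to 2184717 per library, with a median of 5 to 17 counts per peak, and the member peaks took 0.0675% to 0.0765% of them. KO libraries Sample_2268 and Sample_2270, and WT libraries Sample_2273 and Sample_2276, differed from each other by less than the sampling noise (chi-square per degree of freedom 0.974 and 0.99), while the other 18 within-group pairs did not. They are kept apart in the values here. The tests of the member peaks and member genes were also run with each such pair counted as 1 sample; those of Ctla4, of neighbouring peaks and of the marker and partner lists were not. Of the T cell markers, 8 of 9 had peaks, summing to 1336 to 1434 CPM (counts scaled to one common library size) in KO and 1314 to 1423 in WT. B cell markers summed to 49.3 to 55.2 in KO and 48.6 to 66.05 in WT, with 4 of 8 markers at peaks and Cd22 at 0 in at least 1 library, and CD8 T cell markers to 24.1 to 33.9 and 27.5 to 32.3 (2 of 2). NK and innate lymphoid markers summed to 339 to 374 and 343 to 359 (7 of 8), myeloid markers to 250.7 to 303 and 237 to 284 (6 of 8), regulatory T cell markers to 158 to 216 and 159 to 188 (3 of 3), and markers of activated or memory CD4 cells to 739 to 787.5 and 714 to 824 (7 of 7). Cebpa and Ikzf4 were also at 0 in at least 1 library. No gene of these lists was called, and the lists' ranges overlapped between the groups; single peaks were called in the T cell list (4 of 54 higher), the NK and innate lymphoid list (1 higher and 1 lower of 18) and the activated or memory list (2 of 26 higher), where 2.94% of all tested peaks were called higher and 0.911% lower. The part of these other cells in the values that follow was not tested. Ms4a1, Pax5, Ebf1, Lyz2, Csf1r, Ncr1 and Trac had no annotated peak among those used here. In such bulk libraries fewer open cells and less opening per cell cannot be told apart.

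Inhibitory receptors hold back T cell activation: when a ligand on another cell binds them, many recruit tyrosine phosphatases, or compete with a costimulatory receptor for its ligand. PD-1 (Pdcd1), TIM-3 (Havcr2), LAG-3 (Lag3) and TIGIT are known mainly from activated, regulatory and exhausted T cells. BTLA and VISTA (Vsir) are known to be present on resting T cells. ATAC-seq uses the transposase Tn5 to cut DNA that is not wrapped tightly, so that a peak marks an open stretch such as a promoter or an enhancer.

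The promoters of these genes can be seen beside the peaks. RefSeq promoter windows (GRCm38.p6, 250 bases before to 50 bases after a start site) matched 9 of the 10 genes, with 10 windows because Cd160 has a pair, and 8 of the windows met a member peak. The letters TGTGGTT, which RUNX factors recognise, stood on either strand in 6 of the 10 windows, against 5.27% of all 32851 windows. In 4 of the 8 windows that met a peak the letters lay inside that peak, against 2.71% of 11717 such windows genome-wide. These 4 windows are shown because they carry this shared feature; each reads 5′ to 3′ on the gene's strand, with the RUNX letters or their reverse complement in capitals. They are Tigit (chr16:43664135-43664434, minus strand), Btla (chr16:45224087-45224386, plus strand), the downstream start of Cd160 (chr3:96814472-96814771, minus strand) and Cd96 (chr16:46120199-46120498, minus strand).
Tigit: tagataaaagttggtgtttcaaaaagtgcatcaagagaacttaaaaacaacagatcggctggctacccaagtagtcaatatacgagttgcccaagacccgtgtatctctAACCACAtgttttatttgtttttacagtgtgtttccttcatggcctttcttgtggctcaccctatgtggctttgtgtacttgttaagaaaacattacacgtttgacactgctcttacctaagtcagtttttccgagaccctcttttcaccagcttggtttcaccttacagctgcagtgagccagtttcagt
Btla: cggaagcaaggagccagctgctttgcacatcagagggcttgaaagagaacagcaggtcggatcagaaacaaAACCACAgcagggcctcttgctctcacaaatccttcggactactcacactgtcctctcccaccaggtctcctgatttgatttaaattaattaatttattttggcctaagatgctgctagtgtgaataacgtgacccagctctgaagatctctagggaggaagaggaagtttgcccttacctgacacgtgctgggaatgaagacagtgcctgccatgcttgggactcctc
Cd160: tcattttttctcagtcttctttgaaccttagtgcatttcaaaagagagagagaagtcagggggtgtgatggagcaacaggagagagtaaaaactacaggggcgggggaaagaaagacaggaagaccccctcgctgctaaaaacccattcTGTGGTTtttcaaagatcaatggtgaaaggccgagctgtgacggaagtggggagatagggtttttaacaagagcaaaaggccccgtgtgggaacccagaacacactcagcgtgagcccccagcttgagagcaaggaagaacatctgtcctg
Cd96: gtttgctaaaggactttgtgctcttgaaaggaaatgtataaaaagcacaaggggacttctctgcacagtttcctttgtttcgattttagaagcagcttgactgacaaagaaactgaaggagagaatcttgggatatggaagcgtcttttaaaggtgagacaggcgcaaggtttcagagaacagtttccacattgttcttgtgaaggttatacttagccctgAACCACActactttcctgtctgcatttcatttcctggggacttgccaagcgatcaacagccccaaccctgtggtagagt
Counted from 1 at the left, the capitals begin at position 110 in Tigit, 72 in Btla, 150 in Cd160 and 222 in Cd96, with the start site just after base 250. Of the other letters searched on both strands, the AP-1 letters TGANTCA were in 1 of the 10 windows (7.81% of all windows), the NFAT-like GGAAAA in 1 (23.4%), the TCF/LEF letters CTTTGAA in 1 (5.14%), an AT-rich SATB1-like TAATAA in 1 (10.7%) and the ETS letters CCGGAAG in 0 (8.86%). Inside the peak, in the 8 windows that met one, AP-1 stood in 0 (3.11% of such windows genome-wide) and NFAT-like in 1 (13.8%). TCF/LEF stood there in 1 (2.15%), SATB1-like in 0 (1.94%) and ETS in 0 (19.4%). All these letters were searched in the same way as those of RUNX, which alone are printed. The GGAAAA match is in the Tigit window, and the letters overlap no RUNX match there. A match describes the sequence and is not a measured binding site.

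Of the 52 peaks, 16 were annotated as promoter, 15 as intron, 11 as distal intergenic, 5 as 3′ UTR, 4 as downstream and 1 as 5′ UTR. After the filter on low counts 36 could be tested, 12 of them promoter peaks. The 16 left out had mean counts of 1.3 to 11 per library, against 9.8 to 61.4 for those tested, so nothing is said of their change. Tested peaks were 62 to 591 bp wide.

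Among the tested peaks 1 of 36 passed edgeR's quasi-likelihood test at a Benjamini-Hochberg adjusted p of 0.05, where 3.85% of all 34910 tested peaks did. Of the 12 promoter peaks 0 passed (background 1.60% of promoter peaks), and of the 24 others 1 passed (background 5.80%). DESeq2 called 0 of 36 (background 1.68%) and limma-voom 0 (background 3.60%). At an unadjusted p under 0.05 there were 4 (background 13.6%), and in 0 did the libraries of the groups separate (background 3.96%). The log2 fold changes of KO against WT ran from −0.49 to 0.49 with a median of 0.05, and that of all tested peaks was −0.01; 20 were above 0 and 16 below. The promoter peaks ran from −0.34 to 0.23, 4 above 0 and 8 below. The shares of calls among these peaks are thus near or below those among all peaks.

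**Figure D1:**
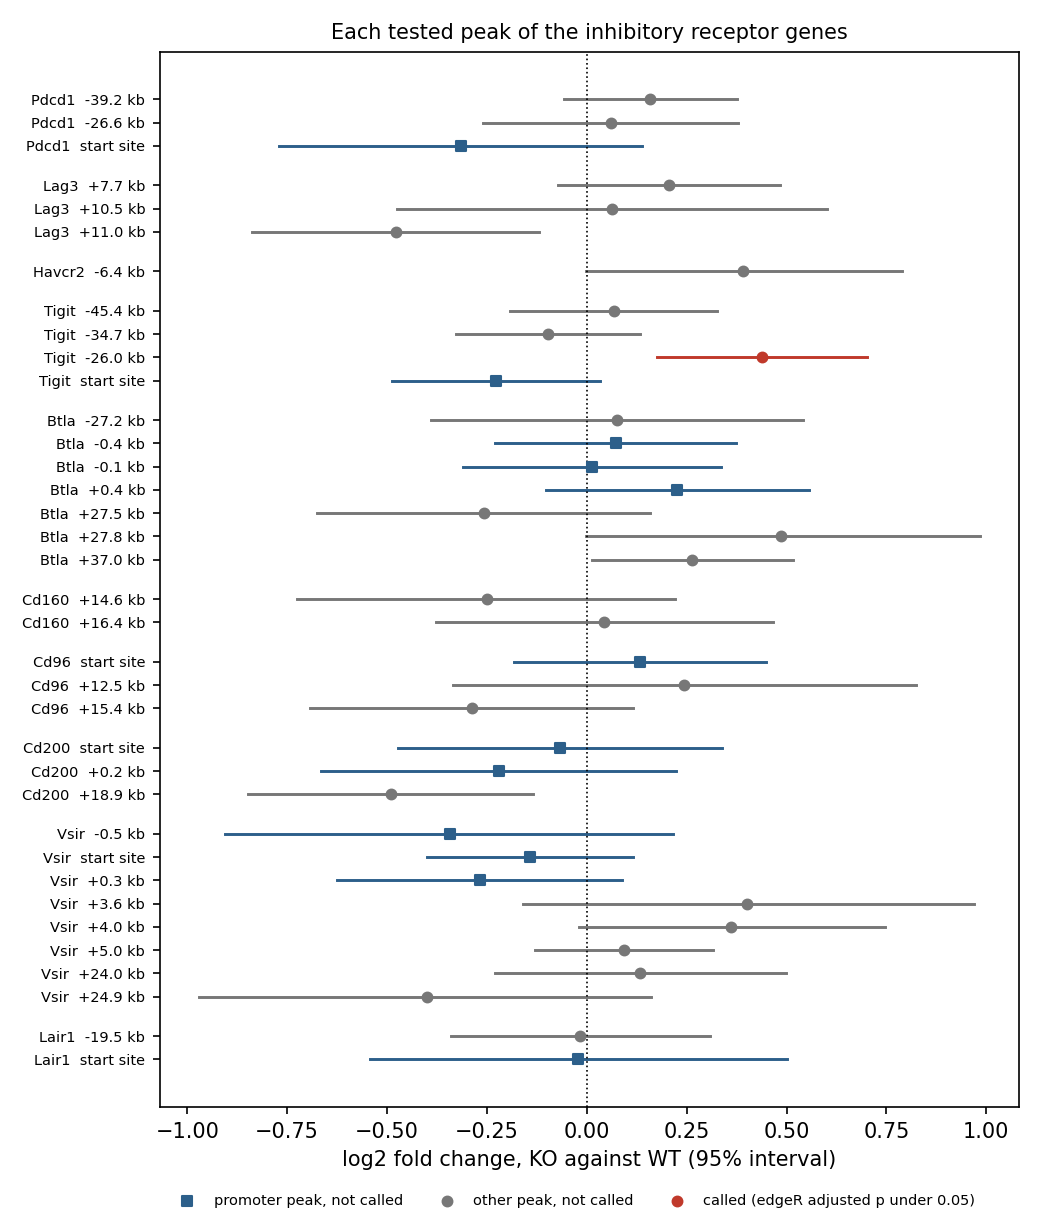
Log2 fold change of KO against WT (horizontal axis, bars for the 95% interval) for the 36 tested peaks, grouped by gene. All but 4 intervals cross 0, and the called Tigit peak at 0.44 is the one that passed the adjusted test.

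PD-1 and LAG-3 are induced receptors for ligands on antigen-presenting cells, PD-1 for the products of Cd274 and Pdcd1lg2 and LAG-3 for MHC class II. Pdcd1 (chr1:94038305-94052553, minus strand) had 6 peaks, 3 of them tested. The peak over its start site (chr1:94052417-94052690) held 13.6, 7.30, 15.0, 10.1 and 8.98 CPM in the KO libraries and 6.52, 12.7, 11.5, 17.2 and 15.5 in the WT libraries, in the order of the label numbers. The groups overlapped over most of their range (10.997 ± 3.21 against 12.7 ± 4.11, SD, n = 5; edgeR adjusted p = 0.609, with a log2 fold change of −0.31 ± 0.23 SE). The peak at −39185 bp (negative distances lie upstream of the start; chr1:94091738-94092173) was the strongest by count, with 44.9 ± 3.86 CPM in KO and 39.7 ± 2.34 in WT (adjusted p = 0.616, edgeR). Summed over its peaks, Pdcd1 held 89.7 ± 8.98 CPM in KO and 83.4 ± 6.19 in WT, a fold of 1.05 with a 95% interval of 0.938 to 1.182 (adjusted p = 0.802, edgeR).

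Lag3 (chr6:124904359-124911705, minus strand) had no peak at its start site. Its 4 peaks, 3 of them tested, lay beyond its 3′ end, between Lag3 and the neighbouring gene Cd4. They began 12218 to 16019 bp above position 124888247, the higher coordinate of Cd4 in RefSeq, taken without regard to its strand. The stretch between Cd4 and Lag3 is known to hold regulatory DNA of Cd4, so the symbol Lag3 is a label of nearness. The tested peak nearest the Lag3 start (chr6:124903634-124903990, 7715 bp from it) held 28.0, 40.7, 23.3, 26.6 and 30.9 CPM in KO and 31.5, 27.0, 24.0, 22.9 and 26.3 in WT. KO library Sample_2269 was the highest and the other values were mixed (29.9 ± 6.61 against 26.4 ± 3.34; edgeR adjusted p = 0.591, with a log2 fold change of 0.20 ± 0.14 SE). The peak at chr6:124900465-124900673, named after its value was seen, held 15.5 ± 3.64 against 20.6 ± 3.22 CPM (log2 fold change −0.48, unadjusted p = 0.00986, adjusted p = 0.150 with edgeR) and did not pass. The sum over Lag3 was 61.3 ± 9.83 against 61.7 ± 6.69 CPM (fold 0.975, interval 0.848 to 1.12; edgeR adjusted p = 0.941). A test of unequal change among the 3 tested peaks gave an adjusted p of 0.127 (edgeR). Within 100 kb of Lag3, 19 peaks of other genes were tested and 0 were called.

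TIM-3, encoded by Havcr2, binds galectin-9 among other ligands and marks strongly stimulated T helper cells. Havcr2 (chr11:46454931-46481255, plus strand) had 1 peak, at −6419 bp from its start (chr11:46448131-46448512). It held 15.2, 24.0, 20.003, 20.7 and 12.5 CPM in KO and 10.9, 16.6, 16.2, 9.29 and 11.5 in WT. The 3 highest KO libraries lay above every WT library and the other two lay among them. The means were 18.5 ± 4.60 and 12.9 ± 3.29 CPM, a log2 fold change of 0.39 ± 0.20 (unadjusted p = 0.0515, adjusted p = 0.373, edgeR). As a gene this is the member with the smallest adjusted p, 0.433 (edgeR), and the widest interval of the fold, 0.987 to 1.76. That interval takes in no change as well as the observed difference, so a change was neither shown nor excluded.

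TIGIT and CD96 are receptors for Pvr and related nectins and compete for them with the costimulatory receptor CD226. Tigit (chr16:43648861-43664184, minus strand) had 5 peaks, 4 of them tested. The called peak (chr16:43690138-43690728, 591 bp wide, at −25954 bp from the start) held 33.6, 35.5, 43.3, 46.3 and 34.4 CPM in KO libraries Sample_2268 to Sample_2272 and 32.6, 28.1, 20.4, 35.7 and 29.7 in WT libraries Sample_2273 to Sample_2277. KO libraries Sample_2270 and Sample_2271 were the highest and WT library Sample_2275 the lowest, and the groups overlapped, since WT library Sample_2276 lay above 3 KO libraries. The means were 38.6 ± 5.78 and 29.3 ± 5.78 CPM, a log2 fold change of 0.44 ± 0.13 (95% interval 0.17 to 0.70, edgeR adjusted p = 0.0395). With the 2 like pairs of libraries counted once each, the adjusted p was 0.0593, with DESeq2 0.460 and with limma-voom 0.0551. Leaving out KO library Sample_2271 or WT library Sample_2275 gave 0.331 and 0.324, with log2 fold changes of 0.31 and 0.30.

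The deposited annotation puts this peak in an intron of a Zbtb20 transcript, while RefSeq's Zbtb20 ends at 43634392 and no RefSeq gene lies over the peak. The peak over the Tigit start site (chr16:43664094-43664581) held 33.6, 21.9, 38.3, 30.8 and 25.9 CPM in KO and 32.6, 38.1, 35.0, 29.3 and 34.5 in WT. The lowest values were in KO libraries Sample_2269 and Sample_2272 (30.1 ± 6.42 against 33.9 ± 3.23; edgeR adjusted p = 0.485, with a log2 fold change of −0.23 ± 0.13 SE). The upstream peaks at −34738 and −45439 bp had log2 fold changes of −0.10 and 0.07. A test of unequal change among the 4 Tigit peaks gave an adjusted p of 0.0542 (edgeR), so the called peak was not shown to differ from the other peaks of the gene. The sum was 156 ± 21.0 CPM in KO and 152 ± 6.69 in WT (fold 1.02, interval 0.919 to 1.13, edgeR adjusted p = 0.939). It depended on the upstream peaks. Its log2 fold change was 0.03 with all peaks and −0.22 with promoter peaks only (adjusted p = 0.653, edgeR). With peaks within 10 kb only it was also −0.22 (adjusted p = 0.610, edgeR).

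**Figure D2:**
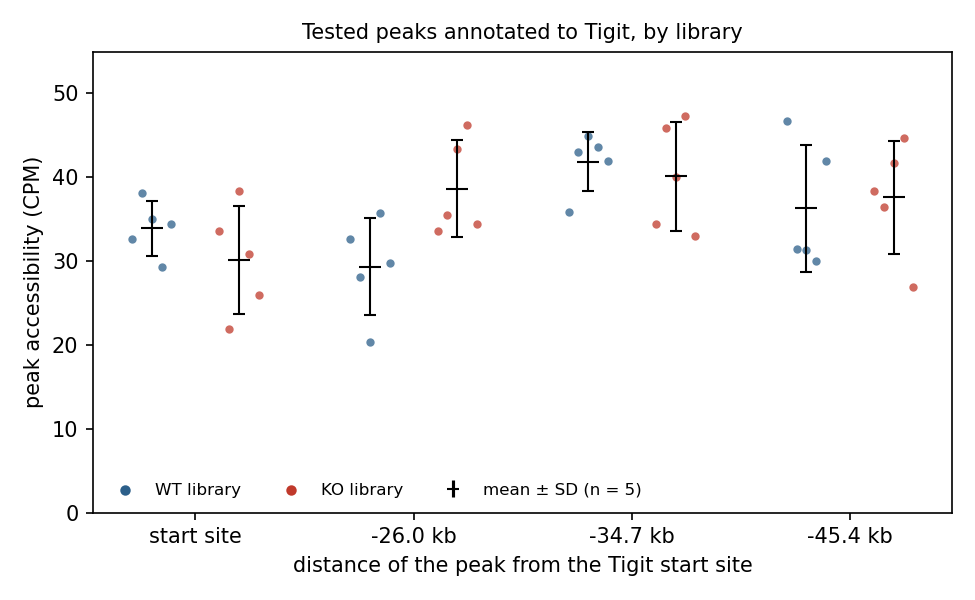
CPM of the 4 tested Tigit peaks in each library (points) with the mean and SD of each group, KO and WT side by side. At the peak at −25954 bp the KO points sit between 33.6 and 46.3 and the WT points between 20.4 and 35.7, and at the other peaks the groups overlap more.

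Cd96 (chr16:46035657-46120248, minus strand) had 5 peaks, 3 of them tested. The start-site peak (chr16:46120061-46120430) held 23.2, 20.9, 28.3, 20.2 and 25.9 CPM in KO and 13.0, 19.9, 23.5, 20.02 and 26.3 in WT. WT library Sample_2273 was the lowest and the rest were mixed (23.7 ± 3.43 against 20.6 ± 4.99; edgeR adjusted p = 0.812, with a log2 fold change of 0.13 ± 0.16 SE). The sum was 52.2 ± 8.47 against 53.0 ± 5.43 CPM (fold 1.01, interval 0.875 to 1.17; edgeR adjusted p = 0.979). Within 100 kb of Cd96, 9 others were tested and 1, with no gene symbol (chr16:45942196-45942486), was called, from 11.3 ± 1.71 in WT to 19.7 ± 3.49 CPM in KO (1.84-fold, edgeR adjusted p = 0.000884).

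BTLA and CD160 share a ligand, the receptor encoded by Tnfrsf14 (HVEM). Btla (chr16:45224337-45252895, plus strand) had 10 peaks, 7 of them tested. The peak at −91 bp from its start (chr16:45224023-45224246) held 21.6, 19.8, 16.7, 19.7 and 19.5 CPM in KO and 18.5, 18.2, 19.3, 18.6 and 23.0 in WT. The groups lay on each other (19.4 ± 1.77 against 19.5 ± 1.98; edgeR adjusted p = 0.986, with a log2 fold change of 0.01 ± 0.16 SE). The peak 37000 bp past the start (chr16:45261337-45261800, named after its value was seen) held 36.4 ± 6.83 against 30.5 ± 4.10 CPM (unadjusted p = 0.0438, edgeR adjusted p = 0.347). The sum of Btla was 151 ± 15.3 against 140 ± 14.1 CPM (fold 1.09, interval 0.986 to 1.21; edgeR adjusted p = 0.496).

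Cd160 (chr3:96798763-96829351, minus strand) had 3 peaks, 2 of them tested, and none at its upstream start. Its peak annotated as 5′ UTR (chr3:96814487-96814730) covers the RefSeq start whose window is printed above and held 9.60, 8.34, 6.67, 13.3 and 9.48 CPM in KO and 18.5, 11.6, 6.79, 15.7 and 12.2 in WT. The highest values were in WT libraries Sample_2273 and Sample_2276 and the groups overlapped (9.48 ± 2.44 against 12.9 ± 4.43; edgeR adjusted p = 0.735, with a log2 fold change of −0.25 ± 0.24 SE). The sum was 29.7 ± 2.69 against 31.7 ± 5.67 CPM (fold 0.968, interval 0.798 to 1.17; edgeR adjusted p = 0.946).

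CD200 is itself a ligand, whose receptor Cd200r1 is known to restrain myeloid cells. Cd200 (chr16:45382135-45409053, minus strand) had 7 peaks, 3 of them tested. In RefSeq the peaks 61932 and 47630 bp past the start lie in Gm30636, and the peak at −4546 bp lies in Gm609. Those were not tested singly but enter the Cd200 sum. The start-site peak (chr16:45408900-45409074) held 8.80, 15.6, 8.33, 15.95 and 14.5 CPM in KO and 17.4, 12.7, 14.1, 12.9 and 14.9 in WT. KO libraries Sample_2268 and Sample_2270 were low and the other KO libraries lay within the WT range (12.6 ± 3.76 against 14.4 ± 1.901; edgeR adjusted p = 0.941, with a log2 fold change of −0.07 ± 0.20 SE). The intron peak 18902 bp into the gene (chr16:45389807-45390151, named after its value was seen) held 13.4 ± 1.85 against 19.2 ± 1.78 CPM, with a highest KO library of 16.5 and a lowest WT library of 16.3 (log2 fold change −0.49, unadjusted p = 0.00937, edgeR adjusted p = 0.146). Its sum was 59.9 ± 4.32 against 64.6 ± 3.04 CPM (fold 0.938, interval 0.826 to 1.06; edgeR adjusted p = 0.781).

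VISTA, a receptor and ligand of the B7 family, is encoded by Vsir (chr10:60346851-60372684, plus strand), whose 8 peaks were all tested. The start-site peak (chr10:60346738-60347026) held 25.6, 29.2, 35.0, 26.6 and 29.9 CPM in KO and 30.4, 32.6, 31.3, 32.9 and 29.7 in WT. The WT libraries lay within the wider KO range (29.3 ± 3.68 against 31.4 ± 1.35; edgeR adjusted p = 0.750, with a log2 fold change of −0.14 ± 0.13 SE). The 3 promoter peaks of Vsir had log2 fold changes of −0.34, −0.14 and −0.27 and its intron peaks of 0.40, 0.36 and 0.09, none past the test, and a test of unequal change among the 8 peaks gave an adjusted p of 0.268 (edgeR). The sum was 150 ± 5.79 against 149 ± 13.5 CPM (fold 1.00, interval 0.908 to 1.10; edgeR adjusted p = 1.00), the narrowest interval of the 10 genes. In RefSeq the Vsir peaks also lie within Cdh23, a longer gene that spans this stretch.

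LAIR-1 binds collagens. Lair1 (chr7:4007073-4063204, minus strand) had 3 peaks, 2 of them tested, and the start-site peak (chr7:4063089-4063290) held 4.80, 10.4, 6.67, 10.6 and 12.0 CPM in KO and 12.0, 6.07, 7.84, 7.86 and 16.9 in WT. The libraries of both groups were spread widely (8.90 ± 3.03 against 10.1 ± 4.36; edgeR adjusted p = 0.985, with a log2 fold change of −0.02 ± 0.26 SE). The sum was 34.6 ± 6.03 against 37.6 ± 9.47 CPM (fold 0.957, interval 0.785 to 1.17; edgeR adjusted p = 0.923). The other tested peak, at −19498 bp, lies in 9430041J12Rik.

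**Figure D3:**
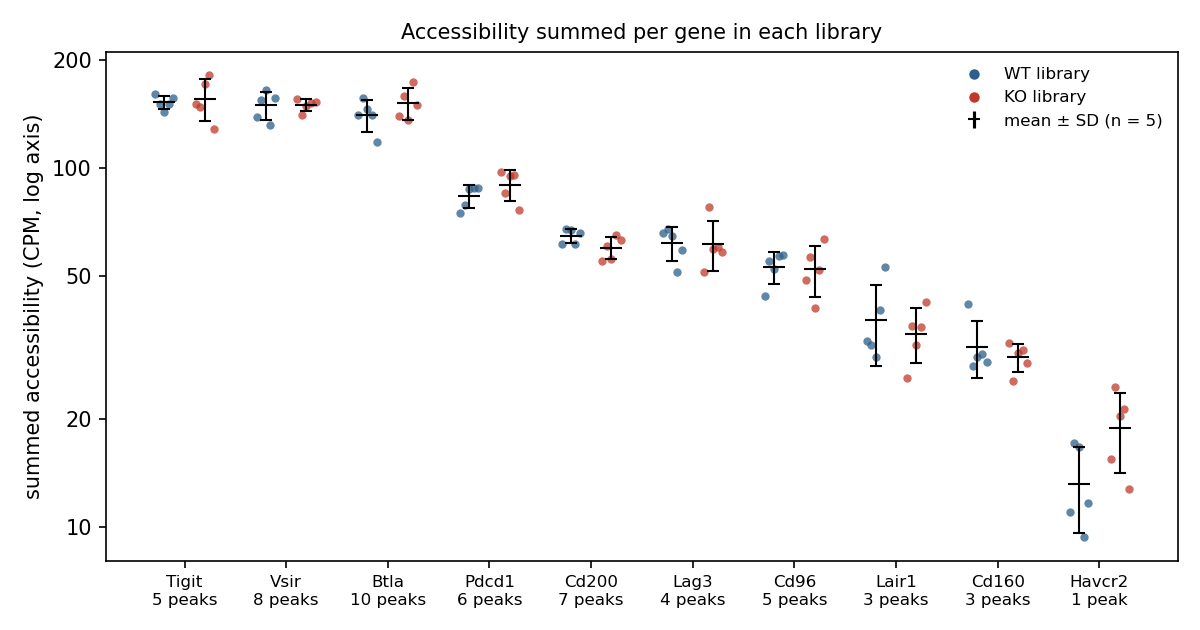
CPM summed over the peaks of each gene, 1 point per library with the mean and SD of the group, KO and WT side by side. In the 10 genes KO and WT overlap, and the Havcr2 points lie lowest.

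By summed counts 0 of 10 genes passed with edgeR, where 2.19% of 12489 genes did, and DESeq2 (0.873%) and limma-voom (2.12%) also called 0. No gene had an unadjusted p under 0.05 (background 12.5%), and in 0 did the groups separate (background 3.12%). For the 9 genes other than Havcr2 the 95% intervals of the fold lay between 0.785 and 1.21, narrower than the 1.39-fold of Ctla4, the receptor gene left out of this set, which rose from 154 ± 7.90 to 214 ± 11.7 CPM (interval 1.27 to 1.52, edgeR adjusted p = 5.93e-07). The difference between Ctla4 and these genes was not tested. A test of unequal change among peaks called 0 of the 9 genes with 2 or more tested peaks (background 9.96% of 6876).

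Levels between genes are compared per kb of peak, over all 10 libraries. Vsir was highest with 97.95 ± 6.44 CPM per kb, then Lag3 with 76.7 ± 9.89, Pdcd1 with 75.15 ± 6.95, Tigit with 66.8 ± 6.41, Btla with 65.4 ± 6.76, Cd160 with 57.5 ± 8.09, Cd96 with 54.1 ± 6.91, Cd200 with 46.6 ± 3.22, Lair1 with 43.5 ± 9.24 and Havcr2 with 42.0 ± 12.9. Only the gaps after Vsir, Pdcd1 and Cd96 exceeded the SD of both neighbours. These levels cover every peak under a symbol, near or far from the gene. The 4 Lag3 peaks all lay outside the gene. Pdcd1's peaks at −26619 and −39185 bp held 105 and 97.1 CPM per kb, against 43.2 at its start site. At start sites, 8380 peaks of all genes had a median of 98.1 CPM per kb. Vsir's stood at 105, above 56.9% of them, Cd200's at 77.2, above 28.0%, Tigit's at 65.6, above 17.1%, Cd96's at 59.8, above 12.4%, Lair1's at 47.1, above 5.23%, and Pdcd1's at 43.2, above 3.45%. Among these 6, Vsir alone lay above the median.

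**Figure D4:**
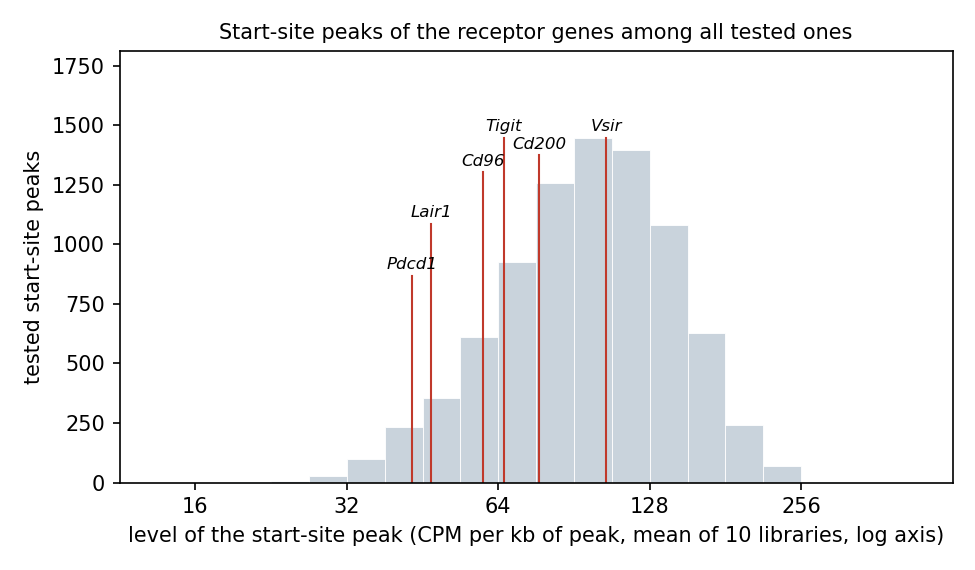
Histogram of CPM per kb (log axis) of the start-site peaks of all genes (8380 peaks), with lines at the start-site peaks of 6 member genes. Vsir at 105 lies above the median of 98.1, and Pdcd1 at 43.2 lies furthest left.

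The partner genes were read the same way. Of the ligands 13 of 15 could be tested and 0 were called; the 3 with the smallest adjusted p were Nectin3, a nectin bound by this receptor family (fold 1.49, edgeR adjusted p = 0.229), Lgals9 (0.905, 0.491) and Pdcd1lg2 (0.931, 0.586). Of their 41 tested peaks 2 were lower (0.911% of all peaks) and 0 higher (2.94%). Of the partner and competing receptors 8 of 10 were tested and 0 called, the smallest p being at Tnfsf14, which encodes another ligand of HVEM (fold 1.29, edgeR adjusted p = 0.139), Crtam (0.891, 0.261) and Icos (1.09, 0.474), and 3 of 43 peaks were higher. Of 16 inhibitory signalling genes 0 were called, led by the phosphatase gene Inpp5a (fold 0.850, edgeR adjusted p = 0.143), the kinase gene Csk (1.08, 0.436) and Dok1 (1.11, 0.452), and 7 of 110 peaks were higher and 1 lower. Of the other inhibitory receptors 8 of 16 were tested and 0 called, led by Cd5, a brake on T cell receptor signalling (fold 1.16, edgeR adjusted p = 0.174), Cd300a (1.11, 0.571) and Klrg1 (1.23, 0.665), and 1 of 25 peaks was higher.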

How the data were processed

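ATAC-seq was measured in 10 libraries, 5 KO and 5 WT, grouped by the treatment given in the labels. The authors deposited raw read counts per peak for 61581 peaks and a peak annotation on mm10; whether peaks were called per library or on pooled reads, whether reads were shifted for Tn5 and how duplicates were treated is not stated by these sources. The submitters' processing notes name bcl2fastq 2.20, Trimmomatic 0.36, Bowtie2 2.3.5, Picard, deepTools 3.5.2 and 3.3.0, SAMtools 1.9, MACS2 2.1.2, ChIPseeker 1.18.0, DESeq2 1.22.2 and R 3.5.3, with no roles. Reads were single, 75 bp.

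From the counts, edgeR 4.0.16 (R 4.3.3) was fitted over the whole table with TMM scaling, filterByExpr and the quasi-likelihood test, for peaks and for sums of peaks per symbol, with Benjamini-Hochberg adjustment over all peaks or genes; peaks and sums were scaled separately. diffSpliceDGE tested unequal change among a gene's peaks. CPM are counts divided by the TMM-scaled total in peaks. DESeq2 1.42.0, limma 3.58.1 (voom), other scalings, filters, thinning and left-out libraries were alternatives. The scripts were tested on simulated data. Intervals are 95%. The members, lists and tests were chosen with earlier results of these data known. By rule, each called member peak and each member's tested peak nearest its start are given by library, and 3 genes per partner list by adjusted p. Sequences come from RefSeq's promoter table. Some items are not reported here.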

Additional observations from a re-analysis of the deposited data

Results flagged for a closer look

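Among 42 groups of 5 libraries examined (10 gene sums and 11 peaks, in KO and in WT), 2 had a library far from the others, and chance alone gives about 1 in 20. In WT the summed Cd160 level of library Sample_2273 was 41.7 CPM and the next highest 30.2, a gap of 0.838 of the group's range. The Btla peak at −91 bp (chr16:45224023-45224246) held 23.0 CPM in WT library Sample_2277 and 19.3 in the next, a gap of 0.766 of the range. For 5 libraries the critical value is 0.710.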

How the results depend on the processing

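The number of member peaks called was 1 with RLE scaling, library totals only and a mean count of at least 20, and 0 with DESeq2, limma-voom, no count filter, thinning to the smallest total, the 3 lowest totals left out and the like libraries merged; it ran from 0 to 1 as each library was left out. The Tigit peak kept a log2 fold change between 0.29 and 0.53 with adjusted p from 0.0120 to 0.701 over 19 alternatives, lost its call in 11, and did so without KO library Sample_2270, Sample_2271 or WT library Sample_2274, Sample_2275 or Sample_2277; the cause was not tested. Unequal change among peaks was called for 1 gene (Lag3) with a mean count of at least 20, which tests fewer peaks, and in 0 to 1 as libraries were left out (Tigit without WT library Sample_2276, adjusted p = 0.036). No member gene was called in any of 23 alternatives, of which leaving out peaks inside other genes was chosen after seeing the data. Of 225 gene values 11 both changed sign and moved beyond the spread, 4 of them for Tigit. Shifts that kept the sign were not counted, even large ones. The Vsir log2 fold change was −0.0007 ± 0.07 SE with all peaks and −0.21 with promoter peaks only (edgeR adjusted p = 0.513). With peaks outside promoters it was 0.12 (edgeR adjusted p = 0.499). That of Cd160 went from −0.05 ± 0.14 SE to −0.31 with thinning (edgeR adjusted p = 0.739). No called value reversed. Mean counts of 9.8 to 61.4 per library at the tested member peaks limit what single peaks can show. No paired analysis was possible because the running numbers of the libraries are not shared between the groups.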

Other observations

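The gene with the smallest adjusted p among the members, Havcr2, was compared with all 12489 tested genes by its log2 CPM over the 10 libraries. The highest Pearson correlations were with Cks1b (0.926), Kif18b (0.914) and Nelfb (0.901). These are the highest of many values over 10 libraries that share a scaling, and are given as a description only.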
